A study of Drosophila melanogaster with 12 samples.

Results

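Spermatogenesis and sperm protein genes were followed as 51 of the 17807 gene symbols counted in whole *Drosophila melanogaster* flies. The 51 genes are the 23 symbols that begin with *Mst* (male-specific transcript), the 7 that read *S-Lap* followed by a digit, and 21 of 24 symbols listed by name from the spermatogenesis pathway. The other 3 listed symbols (*don*, *rye* and *Pros28.1A*) matched no row and were not analysed here. The rule goes by symbol and uses no measured value, but it was set with earlier results of these data known. The 12 libraries came from 4 groups of adults, with 3 biological replicates of 20 flies in each group. The groups were *da-GAL4>UAS-bmm* males and *da-GAL4/+* males, and *da-GAL4>UAS-bmm* females and *da-GAL4/+* females, named below *bmm* overexpression and control flies of each sex. *brummer* (*bmm*) encodes the major triglyceride lipase of the fly, and the *daughterless* driver produces the yeast activator GAL4 in nearly all cells, so that the *UAS-bmm* transgene is switched on throughout the body. All 4 groups carried the driver, and no library of flies with *UAS-bmm* alone was analysed here. After emergence the sexes were kept together for 48 hours to mate and were then separated, and all flies fed on SY10/10 food. The age at freezing is not given in the sources used here.

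Sperm are made in an ordered series of steps. Spermatogonia divide until the product of *bam* ends their proliferation, and the resulting spermatocytes turn on a large gene programme that depends on the testis meiotic arrest complex (tMAC) and on testis variants of the TBP-associated factors (TAFs). Round spermatids then fuse their mitochondria, grow long tails, exchange histones for protamine-like proteins and are separated from each other at individualization. Many of the proteins of the finished sperm are products of genes that are transcribed almost only in the male germ line, and whole-fly RNA therefore carries them chiefly in males. In whole flies, fewer testis cells and less RNA per cell cannot be told apart.

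Library totals ran from 20068187 to 34799635 counts. A floor of 3 counts was used for detection and equals 0.0798 to 0.156 CPM, the count scaled by the effective library size. The transgene was seen in every library labelled for it. *bmm* reached 10620, 12055 and 11049 CPM in *bmm* overexpression males against 474, 234 and 192 CPM in control males, and females of the same genotypes had 4796, 5122 and 4455 CPM with the transgene against 138, 131 and 147 CPM without it. The sex labels held as well: 20 accessory gland and ejaculatory duct markers found in the table summed to 5541 to 7350 CPM in the 6 male libraries and to at most 0.674 CPM in the 6 female libraries. Male libraries also held reads of genes typical of females, at a higher share in control males. These reads are named ovary RNA below, and their source was not tested. The median of 21 yolk, vitelline membrane, chorion and oocyte genes was 0.178%, 0.122% and 0.139% of the female level in *bmm* overexpression males, against 5.20%, 1.22% and 0.586% in control males. For *bam*, *twe* and *Mst85C*, the members with higher levels in females, the product of this share and the mean female level is given below beside their values. For *bol*, *mia*, *topi* and *tomb* the product was at most 1.29, 0.118, 0.0896 and 0.0212 CPM in any male library.

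**Figure D1:**
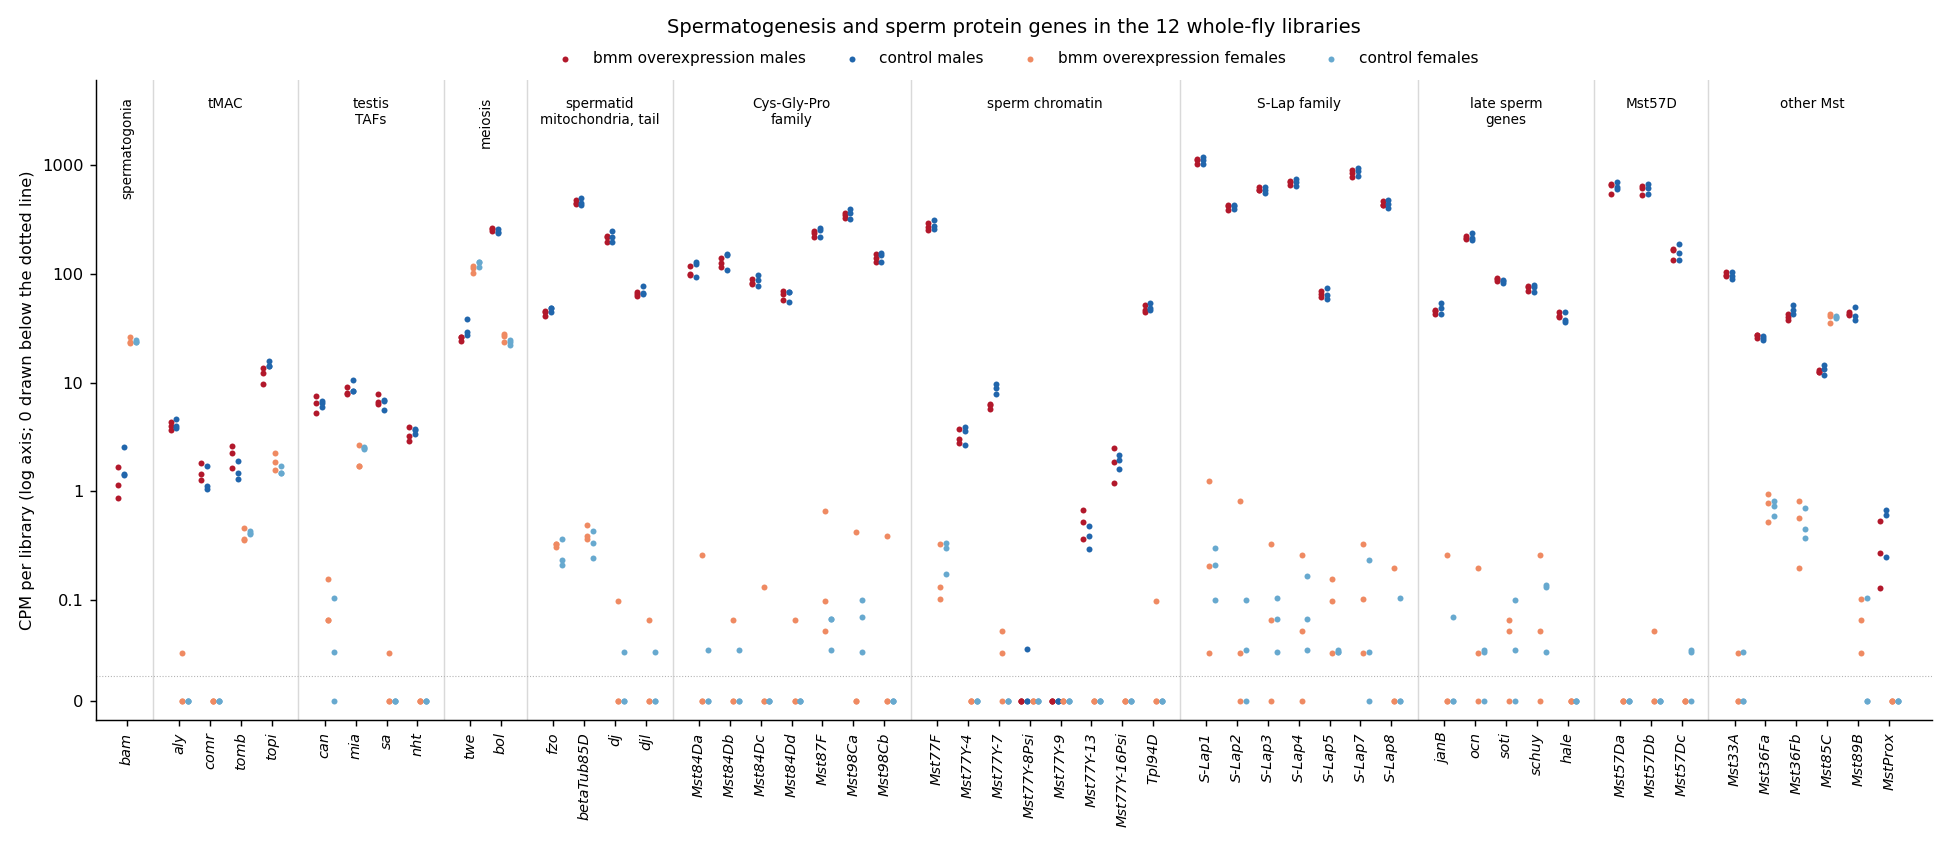
Level of each of the 51 genes in each of the 12 libraries, grouped by role. The vertical axis is CPM on a log scale with values of 0 drawn below the dotted line, and each point is 1 library of *bmm* overexpression males, control males, *bmm* overexpression females or control females, from left to right within each gene. Points of the 2 male groups lie at the same height for nearly all genes, and only *bam*, *twe* and *Mst85C* lie higher in females.

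The first question was whether *bmm* overexpression altered the level of these genes in males. Their sum was 9171, 8173 and 8786 CPM in *bmm* overexpression males, against 8344, 9336 and 8942 CPM in control males, and the groups overlapped. The averages were 8710 ± 503 CPM in *bmm* overexpression males and 8874 ± 499 CPM in control males (SD, n = 3 each). Of the 49 members with enough counts to be tested, 0 passed edgeR's exact test at an adjusted p under 0.05 with an absolute log2 fold change over 1, a threshold that 205 of 13632 genes (1.5%) passed. DESeq2, edgeR's quasi-likelihood test and limma also called 0 members. At an unadjusted p under 0.05 the exact test gave 4 members, *Mst77Y-7*, *topi*, *twe* and *Mst36Fb*, beside 13.1% of all genes. With the limit on the fold change removed, *Mst77Y-7* alone had an adjusted p under 0.05, where 4.31% of all genes did.

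The size of the male differences was small for most members. The median log2 fold change was -0.06 over the 49 members and -0.01 over all genes tested, with 37 members below 0 and 12 above it. The split over all genes was not computed, and without control replicate 2 the median of the members was 0.01. The extremes were -0.72 for *MstProx* and 0.46 for *tomb*, 2 genes of low count. The 95% interval of the log2 fold change, from the quasi-likelihood fit, lay within 0.5 of 0 for 39 of 49 members and within 1 for 45. Only *bam* (-1.34 to 0.17), *tomb* (-0.08 to 1.01), *Mst77Y-13* (-0.44 to 1.18) and *MstProx* (-2.0 to 0.53) had intervals that reached beyond a log2 fold change of 1 in either direction. Groups without overlap were found for 3 members, *Mst77Y-7*, *topi* and *twe*, each lower in *bmm* overexpression males, beside 22.8% of all genes in either direction and 9.9% in that direction. Over the 41 members with more than 100 counts in every male library, the median log2 ratio to the control mean was 0.05, -0.11 and -0.03 in the *bmm* overexpression libraries and -0.12, 0.11 and -0.00 in the control libraries, so that single libraries of both groups lay on either side of the control mean.

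**Figure D2:**
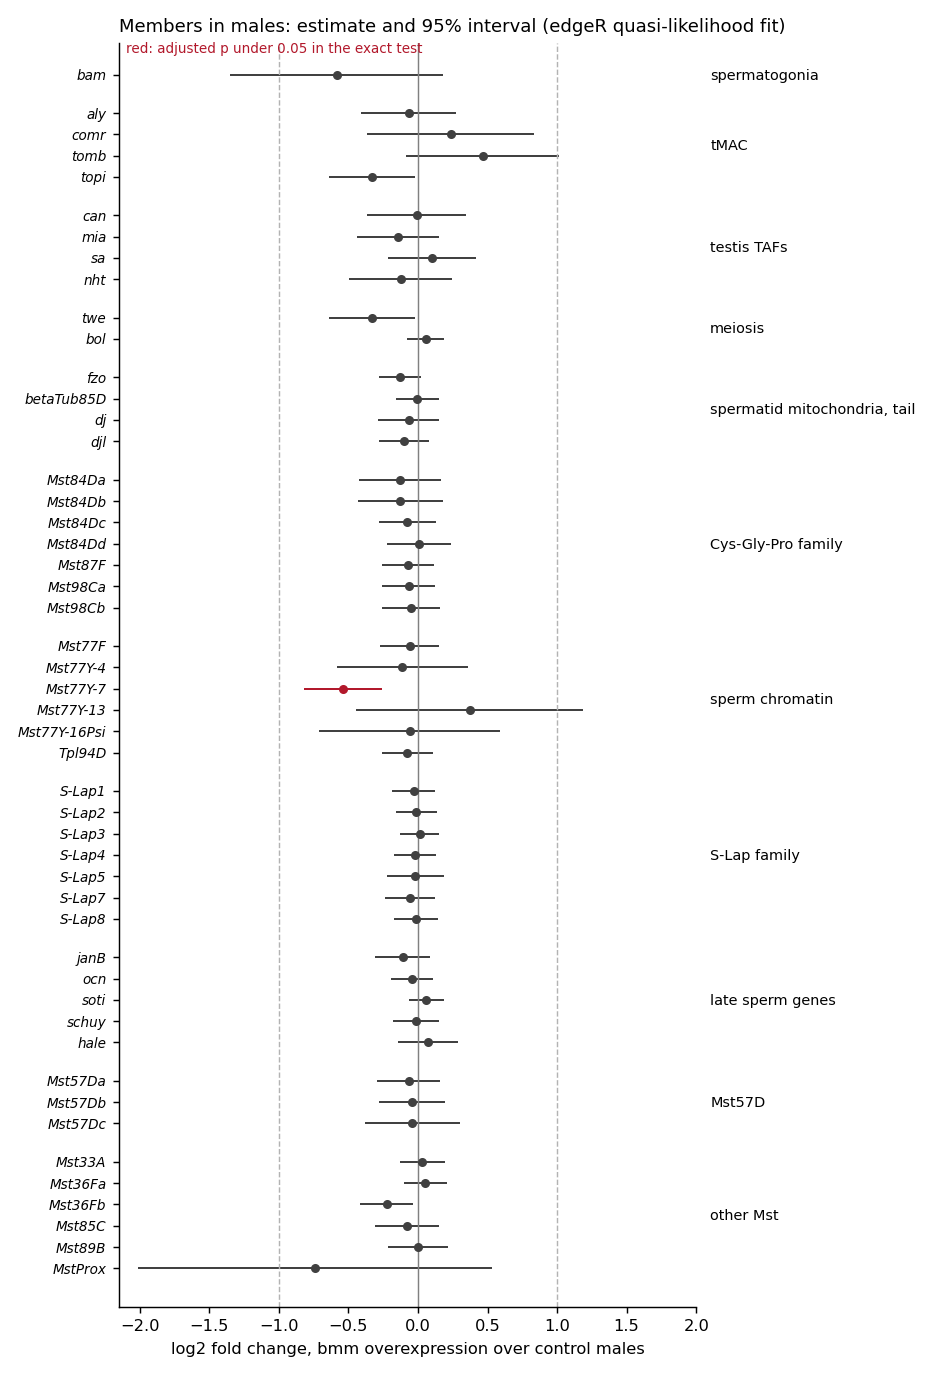
Log2 fold change of *bmm* overexpression over control males for the 49 members tested, by role, from edgeR's quasi-likelihood fit. Points are estimates, lines are 95% intervals, dashed lines mark a log2 fold change of -1 and 1, and red marks *Mst77Y-7* (-0.54), the member with an adjusted p under 0.05 in the exact test.

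The regulators of the spermatocyte programme were read at low levels, at most 7.25 CPM per kilobase of exon in the mean of either male group. *bam*, whose product ends spermatogonial division, had 1.14, 1.66 and 0.878 CPM in *bmm* overexpression males, against 2.55, 1.41 and 1.45 CPM in control males. The groups overlapped, and the highest value belonged to the control library with the most ovary RNA, where the ovary share multiplied by the female level comes to 1.25 CPM. The log2 fold change of *bam* was -0.58 (SE 0.33, adjusted p = 0.572 in the exact test) and came to -0.22 without that library. The part of ovary RNA in this difference was not tested beyond that omission.

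Of the 4 tMAC genes, *topi* and *tomb* encode DNA-binding subunits. *topi* had 13.6, 12.2 and 9.62 CPM in *bmm* overexpression males, against 15.9, 14.1 and 14.2 CPM in control males, with no overlap. Its log2 fold change was -0.33 (SE 0.13, adjusted p = 0.307, exact test), and the 95% interval ran from -0.63 to -0.03. *tomb* had 2.59, 2.27 and 1.66 CPM in *bmm* overexpression males, against 1.30, 1.49 and 1.91 CPM in control males, which overlapped. Here the estimate went the other way, at 0.46 (SE 0.24, adjusted p = 0.530, exact test). *aly*, another subunit of the complex, averaged 4.0 ± 0.34 CPM in *bmm* overexpression males and 4.16 ± 0.43 CPM in control males, and *comr*, a further nuclear subunit, 1.52 ± 0.30 CPM in *bmm* overexpression males and 1.29 ± 0.36 CPM in control males (SD, n = 3 each). None of the 4 passed the test. Exons of *tomb* overlap *Cap-D3* on the opposite strand, and the strand setting of the counting is not given in the sources used here, so that reads of the pair may not be separated.

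The testis TAFs are relatives of general transcription factor subunits that act with tMAC in spermatocytes. Their sum was 25.1, 26.5 and 23.5 CPM in *bmm* overexpression males, against 23.5, 25.6 and 27.7 CPM in control males. The 4 log2 fold changes lay between -0.15 for *mia* (the Taf6 relative) and 0.10 for *sa* (the Taf8 relative), with *can* (the Taf5 relative) at -0.01 and *nht* (the Taf4 relative) at -0.12. The lowest adjusted p of the 4 was 0.871 in the exact test. Their 95% intervals stayed between -0.49 and 0.41.

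Entry into meiosis was represented by *twe*, the Cdc25 phosphatase of meiosis, and by *bol*, an RNA-binding protein that promotes the translation of *twe*. *twe* had 26.2, 26.2 and 24.1 CPM in *bmm* overexpression males, against 38.6, 29.0 and 27.6 CPM in control males, with no overlap. The log2 fold change was -0.33 (SE 0.13, adjusted p = 0.282, exact test). In the mean of the whole-female libraries *twe* had 117 CPM. The ovary share times this level comes to 6.08 CPM in control male replicate 1 but to 1.43 and 0.685 CPM in the other control libraries. In *bmm* overexpression males the product is at most 0.208 CPM. Without control male replicate 1 the log2 fold change of *twe* was -0.15. The part of ovary RNA in the difference of *twe* was not tested beyond that omission. *bol* had 265, 255 and 248 CPM in *bmm* overexpression males, against 239, 258 and 237 CPM in control males, with a log2 fold change of 0.06 and an interval of -0.07 to 0.18.

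**Figure D3:**
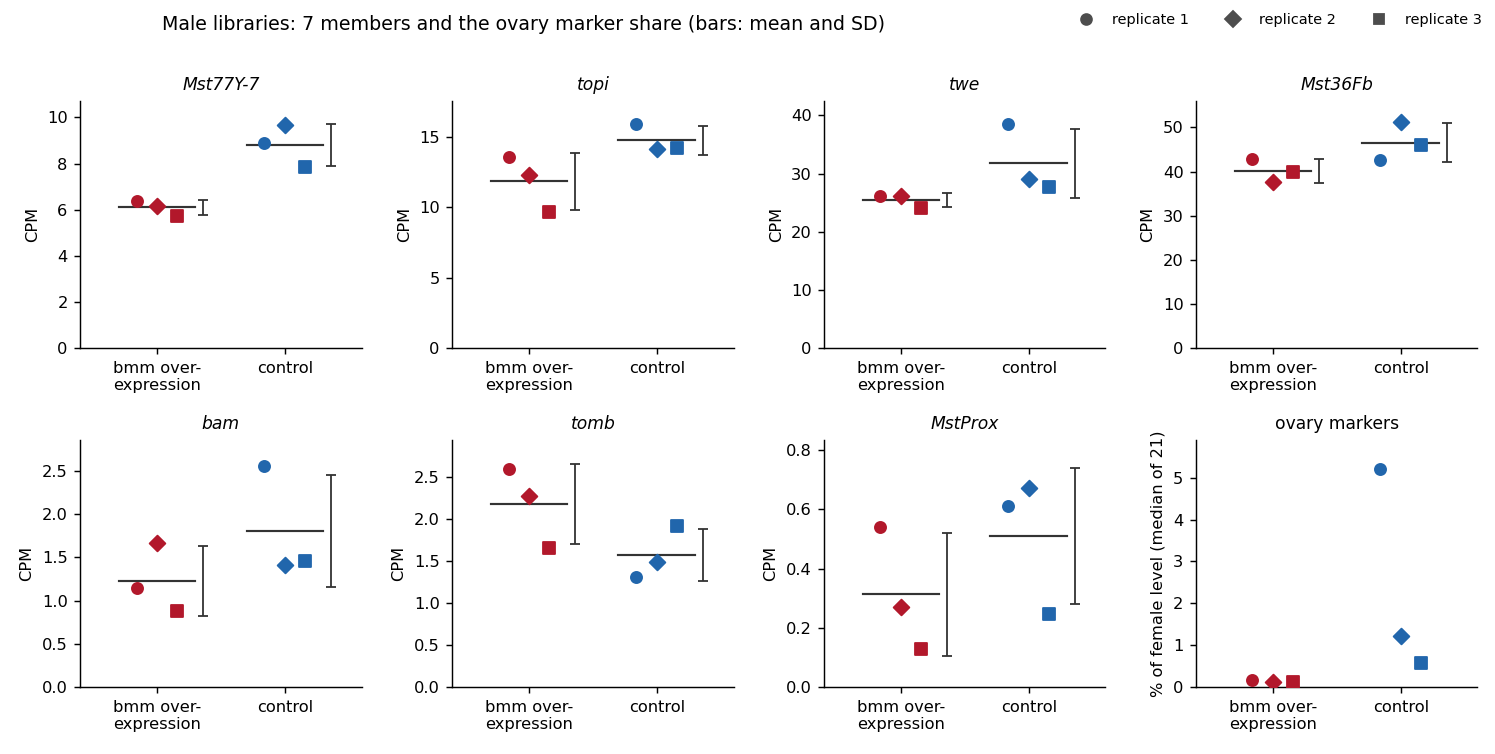
Values in the 6 male libraries of the 4 members with an unadjusted p under 0.05 (*Mst77Y-7*, *topi*, *twe*, *Mst36Fb*), of the 3 other members with the largest estimates (*bam*, *tomb*, *MstProx*), and of the ovary marker share. Vertical axes are CPM, or percent of the mean female level for the ovary markers, marker shapes give the replicate number, and bars give the mean and SD of 3 libraries. *Mst77Y-7*, *topi* and *twe* do not overlap between genotypes, and control replicate 1 has the highest *bam*, *twe* and ovary marker values.

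The 4 genes of spermatid shaping overlapped between genotypes. *betaTub85D*, the testis beta-tubulin of the meiotic spindle and the sperm tail, had 475, 441 and 448 CPM in *bmm* overexpression males, against 423, 493 and 442 CPM in control males. Its log2 fold change was -0.00 with an interval of -0.15 to 0.14. *fzo*, the mitofusin that joins mitochondria in round spermatids, had 44.8, 45.2 and 41.1 CPM in *bmm* overexpression males, against 48.6, 48.8 and 44.8 CPM in control males, and *bmm* overexpression replicate 2 lay just above control replicate 3. *fzo* had the lowest adjusted p of this group (0.677, exact test), at a log2 fold change of -0.13. *dj* and *djl*, neighbours that encode sperm tail proteins, had log2 fold changes of -0.07 and -0.10.

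The *Mst* genes of the Cys-Gly-Pro family encode short repetitive proteins of the sperm tail. The 7 genes summed to 1177, 1019 and 1090 CPM in *bmm* overexpression males, against 996, 1260 and 1183 CPM in control males, with the lowest and the highest library both among controls. *Mst98Ca*, which took the most reads of them, averaged 342 ± 18.1 CPM in *bmm* overexpression males and 356 ± 38.3 CPM in control males (SD, n = 3 each). *Mst87F* averaged 234 ± 15.4 CPM in *bmm* overexpression males and 244 ± 23.1 CPM in control males (SD, n = 3 each). The 4 genes of the *Mst84D* cluster, *Mst84Da* to *Mst84Dd*, lie within chromosome 3R from 7363307 to 7366262 (BDGP6.54 annotation). They averaged between 63.3 and 137 CPM in control males, and their log2 fold changes ran from -0.13 to 0.01. Over the family 0 of 7 genes passed the exact test, and the lowest adjusted p was 0.872.

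Sperm chromatin genes included the 1 member whose adjusted p was under 0.05. *Mst77F*, a linker-histone-like protein of condensed sperm chromatin, had 294, 252 and 266 CPM in *bmm* overexpression males, against 255, 314 and 272 CPM in control males. *Tpl94D*, a transition protein that is present while histones are being removed, averaged 47.4 ± 3.96 CPM in *bmm* overexpression males and 49.7 ± 3.42 CPM in control males (SD, n = 3 each). The genotypes overlapped for both genes, with log2 fold changes of -0.06 and -0.08.

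*Mst77Y* genes are copies of *Mst77F* on the Y chromosome. *Mst77Y-7* (Y, 3327556 to 3328279, protein coding) had 6.39, 6.17 and 5.75 CPM in *bmm* overexpression males, against 8.88, 9.68 and 7.87 CPM in control males. Every *bmm* overexpression library lay below every control library. The log2 fold change was -0.54 (SE 0.12, 95% interval -0.81 to -0.27, adjusted p = 0.0257 in the exact test), short of the fold limit. The call was lost under the quasi-likelihood test (adjusted p = 0.0648), and it was lost without any of the 3 *bmm* overexpression libraries or without control replicate 2 (adjusted p between 0.146 and 0.256 in the exact test). The authors removed alignments with a mapping quality under 60, and reads that match several copies equally well could have been lost or assigned to a single copy, so that the value of each copy is uncertain. Of the other copies, *Mst77Y-4* had a log2 fold change of -0.11, *Mst77Y-16Psi*, an annotated pseudogene on an unplaced scaffold, -0.06, and *Mst77Y-13* 0.36. None of these passed the test. *Mst77Y-9* had no count in any male library and *Mst77Y-8Psi* had 1 count in all.

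The *S-Lap* genes encode leucyl aminopeptidase-like proteins that are among the most abundant proteins of fly sperm. Together the 7 genes gave 4323, 3911 and 4154 CPM in *bmm* overexpression males, against 3843, 4474 and 4194 CPM in control males. The genotypes overlapped for the sum and for each gene. *S-Lap1*, which took the most reads of any member, had 1128, 1026 and 1116 CPM in *bmm* overexpression males, against 1020, 1191 and 1108 CPM in control males. *S-Lap7* averaged 838 ± 61.2 CPM in *bmm* overexpression males and 864 ± 72.4 CPM in control males, and *S-Lap4* 686 ± 28.5 CPM in *bmm* overexpression males and 693 ± 54.4 CPM in control males (SD, n = 3 each). The family was narrow in its response, with all 7 log2 fold changes between -0.06 and 0.01 and all 95% intervals between -0.23 and 0.18. *S-Lap5* stood apart in level only: at 31.4 CPM per kilobase of exon in control males it was below the other 6, which lay between 196 and 522 CPM per kilobase.

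Late genes of sperm formation also overlapped between genotypes. *soti*, an inhibitor of the Cullin-3 ubiquitin ligase that restrains caspases in spermatids, had 91.8, 89.6 and 86.1 CPM in *bmm* overexpression males, against 85.2, 87.3 and 82.1 CPM in control males, which overlapped. *schuy* and *hale*, comet genes whose transcripts gather at the distal ends of spermatids, had log2 fold changes of -0.02 and 0.07. *ocn* and *janB*, adjoining testis-transcribed genes related to *janA*, had log2 fold changes of -0.04 and -0.11. Of these 5 genes 0 passed the exact test, and the lowest adjusted p was 0.823. An exon of *janB* overlaps *janA* on the same strand, so that reads of the overlap may not be counted.

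The *Mst57D* genes are set apart from the rest by tissue, because their short peptides are made in the accessory gland and pass to the female with the semen. *Mst57Da* had 650, 534 and 671 CPM in *bmm* overexpression males, against 630, 601 and 697 CPM in control males. *Mst57Db* had 639, 528 and 615 CPM in *bmm* overexpression males, against 671, 540 and 611 CPM in control males, and *Mst57Dc* averaged 156 ± 20.4 CPM in *bmm* overexpression males and 159 ± 28.0 CPM in control males (SD, n = 3 each). In both genotypes replicate 2 was the lowest library for each of the 3 genes. None passed the test, at log2 fold changes of -0.07, -0.04 and -0.04. Per kilobase of exon, *Mst57Db* (3114 CPM) and *Mst57Da* (1978 CPM) were the highest members in control males, followed by *S-Lap1* (522 CPM).

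The remaining *Mst* genes have little in common beyond the name. *Mst36Fb*, a testis transcript, had 42.9, 37.7 and 39.8 CPM in *bmm* overexpression males, against 42.5, 51.1 and 46.0 CPM in control males, and *bmm* overexpression replicate 1 lay just above control replicate 1. Its log2 fold change was -0.22 (SE 0.08, adjusted p = 0.306, exact test). Its neighbour *Mst36Fa*, 88 bases away, had a log2 fold change of 0.05. *MstProx*, which encodes a protein of the Toll family, had 0.538, 0.272 and 0.130 CPM in *bmm* overexpression males, against 0.612, 0.670 and 0.248 CPM in control males, which is close to the limit of detection. Its exons overlap *Mst84Da* on the opposite strand, a gene far more abundant in these libraries. *Mst33A* and *Mst89B* had log2 fold changes of 0.03 and 0.00. *Mst85C* had 12.9, 12.4 and 12.4 CPM in *bmm* overexpression males, against 14.4, 11.7 and 13.3 CPM in control males, and the groups overlapped. The ovary share times its female level comes to at most 0.0707 CPM in *bmm* overexpression males, against 2.06, 0.486 and 0.233 CPM in control males. Its log2 fold change was -0.08, and 0.00 without control replicate 1. The part of ovary RNA in the values of *Mst85C* was not tested further.

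The next comparison, of males with females within each genotype, showed which sex carried the reads of these genes. Of all counts in a library, the members took 0.857% to 0.982% in *bmm* overexpression males and 0.902% to 1.02% in control males, against 0.0188% to 0.0196% in *bmm* overexpression females and 0.0192% to 0.0198% in control females. In the quasi-likelihood test over all 4 groups, 46 of the 49 members that passed the filter were higher in males and 3 were higher in females in each genotype by the same limits (adjusted p under 0.05, log2 fold change beyond 1). Among all 13988 genes, 44.9% were higher and 23.7% lower in control males, and 42.9% were higher and 23.9% lower in *bmm* overexpression males. Members absent from females passed the filter through the male libraries, so these counts describe the genes and are no support for a difference.

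The size of the male excess differed widely between roles. *mia* was 3.62-fold, *tomb* 3.75-fold and *topi* 9.49-fold higher by mean CPM in control males than in control females. *bol* was 10.4-fold, *fzo* 175-fold and *betaTub85D* 1338-fold higher in control males. For the most abundant sperm products the ratio rested on a few female counts: *S-Lap1* was 5434-fold higher in control males, where the control females had 18 counts in all, and *Mst98Ca* 5230-fold, where they had 6. *Mst57Da* had no count in any female library, and with each control female library set at 3 counts it was at least 6306-fold higher in control males. *Mst98Cb* had no count in control females, which makes it at least 1412-fold higher in control males by the same floor, but it had 12 counts in *bmm* overexpression female replicate 2.

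The remaining 3, *bam*, *twe* and *Mst85C*, ran the other way. Their exons overlap those of *CG11854*, *EndoGI* and *Nmdmc*, in that order, on the opposite strand. The strand setting of the counting is not given in the sources used here, so reads of these pairs may not be separated. *bam* averaged 1.23 ± 0.40 CPM in males with *bmm* overexpression, against 24.3 ± 1.76 CPM in females of that genotype (SD, n = 3 each). In controls it averaged 1.81 ± 0.65 CPM in males, against 24.0 ± 0.67 CPM in females (SD, n = 3 each). The log2 fold change was -4.37 in *bmm* overexpression and -3.68 in control flies (adjusted p = 5.9e-10 and 1.6e-09, quasi-likelihood test over all genes). *twe* and *Mst85C* had log2 fold changes of -2.18 and -1.73 in *bmm* overexpression flies and of -1.95 and -1.59 in control flies. *bam* and *twe* are known to act in the female germ line too, where *bam* starts the differentiation of the cystoblast and *twe* is required for meiosis in the oocyte. Control males also held the ovary RNA described above, and its part in these differences was not tested. *bol*, *topi*, *mia*, *tomb* and *Mst36Fa* were also read in every female library, at 23.5, 1.55, 2.53, 0.419 and 0.712 CPM in the mean of control females.

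In females, 10 members had enough counts for a test of *bmm* overexpression, and 0 passed edgeR's exact test, where 148 of 10488 genes (1.41%) did. The quasi-likelihood test and DESeq2 also called 0 of these 10, and limma called 0. Without the fold limit the exact test still gave 0 members, beside 14.2% of all genes, and at an unadjusted p under 0.05 it gave 1 member, *twe*, beside 27.3% of all genes. *twe* had 101, 117 and 112 CPM in *bmm* overexpression females, against 128, 127 and 116 CPM in control females, with *bmm* overexpression replicate 2 above control replicate 3. The log2 fold change was -0.14 (SE 0.05, adjusted p = 0.126, exact test). *bam* had 22.9, 23.6 and 26.3 CPM in *bmm* overexpression females, against 23.8, 23.4 and 24.7 CPM in control females, with a log2 fold change of 0.05 and an interval of -0.12 to 0.21. *Mst85C* had a log2 fold change of 0.01 and *bol* of 0.17 (adjusted p = 0.233, exact test). The groups overlapped for all 10 members, whereas 35.1% of all genes tested did not overlap.

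The other members left only traces in females. Counts were 0 in all 6 female libraries for 10 members, and 25 members had at most 3 counts in every female library. Among the 44 members with under 10 counts in some female library, the summed count was 53, 250 and 81 in *bmm* overexpression females, against 111, 78 and 63 in control females. *bmm* overexpression female replicate 2 stood apart, with a count for 32 of the 44 members where the other 5 libraries had a count for 13 to 22. It was also the highest female library for 24 of the 51 members.

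The excess in that library was large in some groups of sperm genes, small or not seen in others, and not seen in accessory gland genes. The 7 *Mst* genes of the Cys-Gly-Pro family had 1, 61 and 3 counts in *bmm* overexpression females, against 3, 5 and 5 in control females. The 7 *S-Lap* genes had 10, 100 and 6 counts in *bmm* overexpression females, against 27, 15 and 8 in control females, and the 5 late genes 2, 24 and 1 in *bmm* overexpression females, against 8, 8 and 1 in control females. As a share of the control male mean, replicate 2 held 0.175% of the Cys-Gly-Pro family, 0.0787% of the *S-Lap* family and 0.17% of the late genes, against at most 0.0152%, 0.0216% and 0.06% in the other 5 female libraries. The sperm chromatin genes had 3, 14 and 4 counts in *bmm* overexpression females, against 10, 5 and 9 in control females. The 4 genes of spermatid shaping held 0.112% of the control male mean in replicate 2, against up to 0.11% in the other female libraries. Of these *betaTub85D* had 7, 12 and 15 counts in *bmm* overexpression females, against 13, 7 and 10 in control females, so that replicate 2 was not the highest. Genes outside the 51 were mixed. The sperm aminopeptidase *loopin-1* had 0, 0.558 and 0.0656 CPM in *bmm* overexpression females, against 0.201, 0 and 0.0674 CPM in control females. The cup gene *c-cup* had 0.0519, 0.230 and 0.0656 CPM in *bmm* overexpression females, against 0.0668, 0.0696 and 0.101 CPM in control females. *w-cup*, a cup gene of late spermatids, had 0, 0.0985 and 0.0985 CPM in *bmm* overexpression females, against 0.10, 0.139 and 0 CPM in control females. The listed individualization genes had 5, 3 and 3 counts in *bmm* overexpression females, against 0, 1 and 0 in control females. The *Mst57D* genes had 0 counts in that library, where 3 counts would be 0.0985 CPM, and the 20 accessory gland markers had 6 counts, 0.00292% of the control male mean. The source of these reads was not tested.

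**Figure D4:**
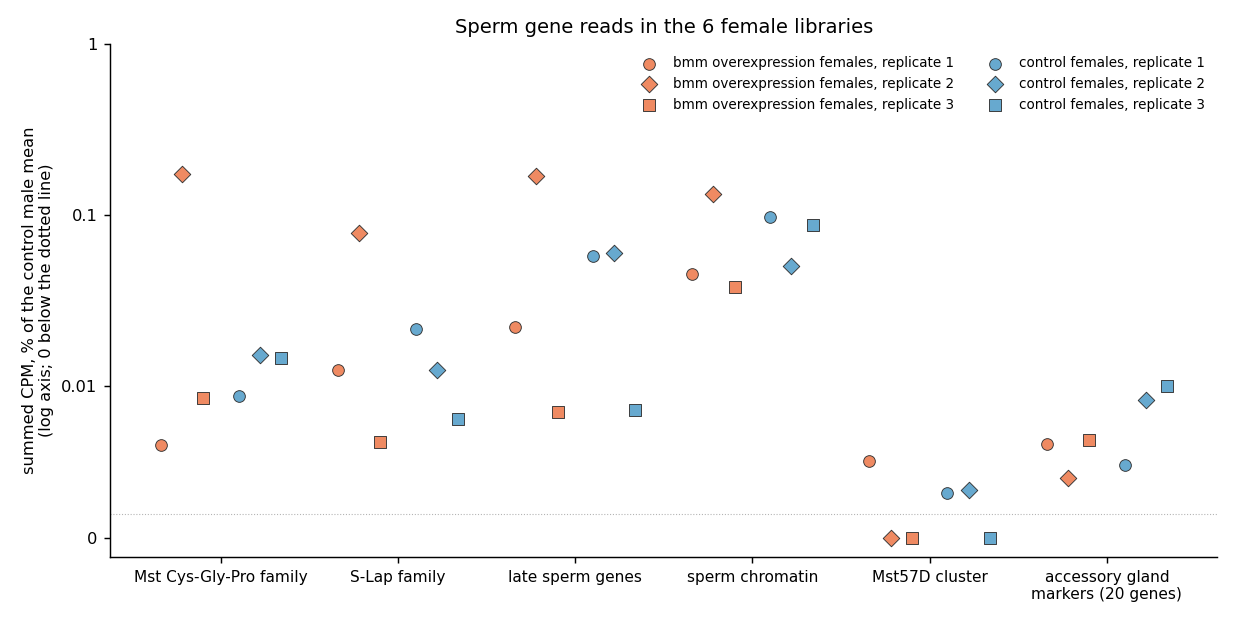
Summed CPM of 5 groups of members and of 20 accessory gland and ejaculatory duct markers in the 6 female libraries, in percent of the control male mean. The vertical axis is logarithmic with 0 drawn below the dotted line, colours give the genotype and marker shapes the replicate number. *bmm* overexpression female replicate 2 is the highest library for the Cys-Gly-Pro family (0.175%), the *S-Lap* family (0.0787%), the late genes (0.17%) and sperm chromatin (0.133%), and lies among the lowest for the *Mst57D* cluster and the accessory gland markers.

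Whether the response to *bmm* overexpression differed between males and females was tested by the interaction of genotype and sex. Of 49 members 0 had an adjusted p under 0.05 in the quasi-likelihood test, beside 2.91% of all genes, and DESeq2 also called 0. Only 10 of the 49 had enough female counts for a test within females, and the others entered through the male libraries. Members without any female count, such as *comr*, *nht* and *hale*, could not show a difference here, so the count of 0 is no result about them. At an unadjusted p under 0.05 there were 7 members by the quasi-likelihood test and 6 by DESeq2, beside 15.8% of all genes by the quasi-likelihood test. The 7 were *bam*, *topi*, *Mst84Dc*, *Mst87F*, *Mst98Cb*, *Mst77Y-7* and *S-Lap2*. In 5 of them, *topi*, *Mst84Dc*, *Mst87F*, *Mst98Cb* and *S-Lap2*, the highest female value was that of *bmm* overexpression female replicate 2. Without that library 2 members had an unadjusted p under 0.05. The drop was not particular to it: there were also 2 without control female replicate 3, and 12 without *bmm* overexpression female replicate 3.

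The members shared some features of position and length. None is annotated to the X chromosome, which holds 15.1% of the 17019 rows with a position in the BDGP6.54 annotation, and 5 are on the Y chromosome, which holds 0.664%. The largest number, 24, is on chromosome 3R. Another member lies within 10000 bases for 23 of the 51, as in the *Mst84D* and *Mst57D* clusters and in the pairs *dj* and *djl*, *Mst98Ca* and *Mst98Cb*, *S-Lap1* and *S-Lap2*, *hale* and *schuy*, and *ocn* and *janB*. The rule takes whole symbol families, so part of this nearness follows from the rule. The same holds for the 5 members on the Y chromosome, all *Mst77Y* copies. The share of all genes with such a neighbour was not computed. Neighbours could differ in level, as *ocn* and *janB* did at 352 and 84.6 CPM per kilobase of exon in control males. The members were short, with a median exon length of 1319 bases against 1736 for the 13248 protein-coding rows, and the shortest was *Mst57Db* with 195 bases.

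Genes of the same pathway outside the 51 were described from lists of tMAC partners, Bam partners, the comet and cup genes of late spermatids, other aminopeptidases, sperm chromatin, individualization and testis proteasome subunits. Of 39 listed genes 38 could be tested in males, and 0 were called higher and 0 lower by the exact test, at either threshold. Of all genes, 1.5% were called with the fold limit and 4.31% without it, so few calls would be awaited among 38 genes. The median log2 fold change was 0.00, and the range ran from -0.22 to 0.18. *loopin-1*, an aminopeptidase of sperm close to the *S-Lap* family, had 887, 767 and 824 CPM in *bmm* overexpression males, against 768, 894 and 841 CPM in control males. In males 4 of the 38 did not overlap between genotypes, 2 higher and 2 lower in *bmm* overexpression males, beside 22.8% of all genes. The 2 higher were *f-cup*, a cup gene, and *bgcn*, and the 2 lower were *Prosalpha4T2* and *Prosbeta5R2*, testis proteasome subunits, at log2 fold changes of 0.11, 0.17, -0.11 and -0.22. *bgcn*, which acts with *bam* as a translational repressor, had 20.0, 20.9 and 18.8 CPM in *bmm* overexpression males, against 16.8, 18.1 and 17.9 CPM in control males (adjusted p = 0.586, exact test), and none of the 4 passed the test. In females 10 of the 39 were tested and 0 were called, beside 1.41% of all genes. Of the 10, 3 did not overlap, all lower in *bmm* overexpression females, beside 35.1% of all genes. *tut*, the other Bam partner, had 5.96, 6.4 and 6.3 CPM in *bmm* overexpression females, against 7.52, 8.36 and 8.49 CPM in control females, and was lower at a log2 fold change of -0.36 (adjusted p = 0.0432, exact test), short of the fold limit and beside the 14.2% of all genes under that p.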

How the data were processed

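Whole-fly RNA was sequenced in 12 libraries, 3 per group. The authors trimmed reads of stranded mRNA libraries, ran HISAT2 against BDGP6.28, dropped alignments of mapping quality under 60 and counted genes with featureCounts of Subread. Tool versions are not given in the sources used here. The counts deposited for each symbol are whole and unscaled, and all edgeR and DESeq2 fits used them. A deposited signal for 14246 symbols is each count over the effective library size (CPM), and 100% of its values gave whole reads within 0.01. CPM were used for levels, and CPM per kilobase used exon lengths of the BDGP6.54 annotation, which matched 51 of 51 members by symbol. The 49 members in the CPM table exclude *Mst77Y-9* and *Mst77Y-8Psi*.

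Genotypes were compared within each sex by edgeR 4.0.16 (filterByExpr, TMM, exact test, Benjamini-Hochberg over all genes), following the methods of the study. Standard errors and intervals came from the quasi-likelihood fit, which also tested the sexes and the interaction over 12 libraries. DESeq2 1.42.0 and limma 3.58.1 (log2(CPM + 1)) were alternatives, with other normalizations, no filter, a replicate block, and each library left out. Tested on simulated data with 200 genes changed 4-fold, the fits recovered 99% of them in males (9 false calls among 13632 genes), 100% in females (7 among 10488) and 99.5% for the interaction (2 among 13988). The changed genes were drawn only from genes with a sizeable expected count in every group compared. Most members lie below that limit in females, so the recovery for the interaction does not cover them. Members of low count in males, such as *MstProx*, are not covered either. Smaller changes were not simulated.

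Replicates of a group differed by more than sampling noise. They came from separate sets of flies, and nothing pairs them across groups. Intervals give the uncertainty of the estimated log2 fold change, drawn from the spread between these libraries. The members, the lists and the rule for the genes named (all listed members, the *S-Lap* and *Mst* groups, and the extremes of the male comparison) were chosen with earlier results of these data known.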

Additional observations from a re-analysis of the deposited data

How the results depend on the processing

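Of the 49 members tested in males, 0 were called under each of the alternatives, among them the quasi-likelihood test, DESeq2, other size factors, no filter, limma and each library left out, and 0 in females likewise, of 10 members (41 without a filter, 49 in limma). With the fold limit removed the males had 1 member, *Mst77Y-7*. Its adjusted p was over 0.05 in 7 of 14 alternatives: 0.0648 in the quasi-likelihood test, 0.0733 in limma, 0.0982 with the replicate number as a block, and between 0.146 and 0.256 without any of the 3 *bmm* overexpression libraries or without control replicate 2. It was 0.0239 without control replicate 1 and 0.00589 without control replicate 3. The cause was not tested. Its log2 fold change stayed between -0.62 and -0.46. All other single-gene results kept their side of the threshold. The median log2 fold change of the members in males lay between -0.10 and 0.01 with a library left out and changed sign, to 0.01, without control replicate 2. In females it was 0.89 without a filter, where 41 members of low count entered in place of 10, and between -0.02 and 0.11 with a library left out.

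With the replicate number as a block, 0 members were called in either sex, 49 between the sexes in each genotype and 0 for the interaction. Samples of the same number correlated between -0.08 and 0.13 across groups, so the numbers were not taken as pairs. The exact test between the sexes called 48 of 48 members in each genotype. In the main fit, 44.9% of all genes were higher and 23.7% lower in control males, and 42.9% and 23.9% in *bmm* overexpression males. Members absent from females passed the filter through the male libraries, so these counts are no support for a difference. For the interaction, the number of members with an unadjusted p under 0.05 ranged from 2 to 12 with a library left out, 2 of them without *bmm* overexpression female replicate 2 or control female replicate 3 and 12 without *bmm* overexpression female replicate 3. Members under 3 counts per library in females, 0.0985 to 0.156 CPM, could not be compared between genotypes at this depth.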
